A study of Mus musculus with 7 samples.

Results

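The genes described here encode centrosome and cilium proteins and were grouped as partners of DISC1, a relation that these data do not test. They were chosen by symbol, as the gene identifiers of the deposited table that map to Pcnt, Pcm1, Bbs1, Bbs4, Cep63, Cep290, Akap9, Cdk5rap2 and Ift88, and not by their measured values. All 9 were found among the 43626 gene identifiers, and all 9 were among the 17670 genes tested. The prefrontal cortex of 8-week-old males of the strain C57BL/6J had been profiled by RNA sequencing, with 3 wild-type (WT) samples and 4 samples of the genotype labelled hDISC1AA/+. The name denotes 1 altered and 1 normal allele. The study's title concerns the phosphorylation of DISC1 and the polarization of cortical neurons, and the labels do not say how the allele was made, whether it holds human sequence or in which cells it is expressed. The labels do not name a separate mouse for each sample, so p-values measure the spread between these 7 libraries, which may in part be technical.

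The centrosome is the main microtubule-organizing centre of a cell. Its centrioles are surrounded by pericentriolar material, which anchors the complexes that start new microtubules, and by centriolar satellites, granules that carry proteins to and from it. In a neuron that no longer divides, the older centriole becomes the base of a primary cilium, a short antenna that gathers receptors such as that for somatostatin. Intraflagellar transport moves cargo along the cilium, and the BBSome, a coat-like complex, sorts membrane proteins out of and into it. DISC1 is a scaffold protein, and in dividing and migrating cortical cells it has been placed at the centrosome together with PCM1, BBS4 and pericentrin.

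Values are the authors' normalized counts, that is, reads divided by 1 size factor per library. Between 33512557 and 63845254 reads per library fell on genes, and WT replicate 1 was sequenced most deeply. The 9 genes had 378 to 8141 reads per library, so that the counting error of the smallest of these values was 5.14%. In 1 hDISC1AA/+ column the number is found in no title of the labels, and that column is called the unnumbered library. Earlier results of these data set apart WT replicate 1, in which the oligodendrocyte markers summed to 141527 against 40919 to 52904 in the other libraries. They also set apart hDISC1AA/+ replicate 1, in which mitochondrially encoded genes took 1.94% of the reads against 5.14% to 6.94%. The 11 neuronal markers summed here, among them Snap25 and Slc17a7, came to 513295 to 544595 in WT and 476598 to 541728 in hDISC1AA/+, so that neuronal transcripts were abundant in all 7. Disc1 itself had 46.9, 72.0 and 109 in WT replicates 1 to 3. It had 60.3, 81.0, 80.2 and 85.4 in hDISC1AA/+ (replicate 1, then the unnumbered library, then replicates 3 and 4), within the WT range in all 4. These reads are of the whole gene and do not separate the alleles.

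None of the 9 genes differed between the genotypes past the threshold. In limma's moderated linear model on log2(normalized count + 1), fitted over all 17670 genes with Benjamini-Hochberg adjustment, 0 genes had an adjusted p under 0.05. An unadjusted p under 0.05 was reached by 431 genes (2.44%) and by 0 of the 9. With edgeR on the recovered reads 0 genes passed and 467 (2.66%) had an unadjusted p under 0.05. With DESeq2 these counts were 0 and 604 (2.13%), and with limma's array weights 0 and 1823 (10.3%). The log2 fold change, hDISC1AA/+ minus WT, lay between -0.25 (Cep290) and 0.16 (Cep63), with 5 genes below 0 (52.2% of all genes tested) and 4 above it. The median of the 9 was -0.031, against -0.0092 for all genes tested. For 7 of the 9 genes the 95% confidence interval lay within 1.5-fold in either direction (54% of all genes tested), and for all 9 it lay within 2-fold. An interval that includes 0 does not show that the levels were equal. In bulk tissue, fewer cells of a type and less RNA per cell cannot be told apart, and these values are means over all cells of the dissected tissue.

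**Figure D1:**
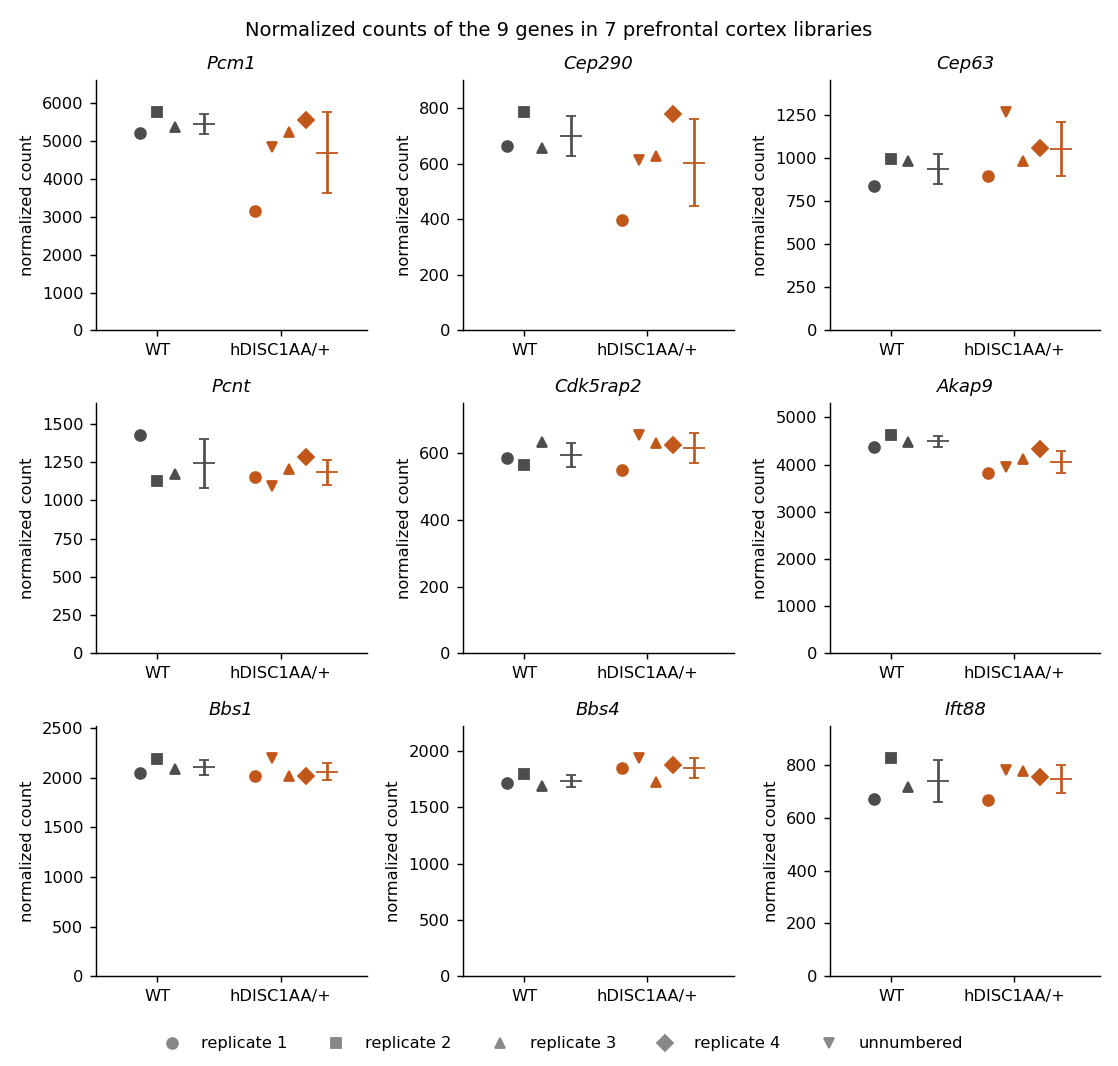
Normalized counts (vertical axes, from 0) of the 9 genes in the 3 WT (grey) and 4 hDISC1AA/+ (orange) libraries. Symbols mark the replicate, and the bar beside each group is the mean with its SD. The groups are apart only in Akap9, and hDISC1AA/+ replicate 1 (circle) lies far below the rest in Pcm1 and Cep290.

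Pcm1 encodes the scaffold on which centriolar satellites assemble, and per exon length it was the most abundant of the 9 genes. Pcm1 (ENSMUSG00000031592) lies on chromosome 8, 41239752 to 41332344 of GRCm38, plus strand. Its normalized counts were 5225, 5759.7 and 5380.1 in WT replicates 1 to 3. Among the hDISC1AA/+ libraries, replicate 1 had 3148, the unnumbered library 4841, replicate 3 had 5229.5 and replicate 4 had 5560.3. The groups overlapped, and replicate 1 was 35.0% below the lowest of the other 6 libraries. The means were 5455 ± 275 (SD, n = 3) and 4695 ± 1072 (SD, n = 4), a log2 fold change of -0.25 (95% CI -0.66 to 0.17; limma adjusted p = 0.974). Without hDISC1AA/+ replicate 1 the log2 fold change was -0.067, and without it and WT replicate 1 it was -0.098. No other annotated gene overlaps Pcm1.

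Cep290 encodes a large coiled-coil protein of the satellites and of the transition zone, the gate at the base of the cilium. Cep290 (ENSMUSG00000019971) lies on chromosome 10, 100487558 to 100574840, plus strand. It had 663, 786 and 658 normalized counts in WT and, in the same order of libraries as for Pcm1, 399.8, 613, 628 and 779 in hDISC1AA/+. Again replicate 1 stood alone, 34.8% below the lowest of the other 6 libraries, and of the other 3 hDISC1AA/+ values 2 lay below all WT values and 1 within the WT range. The means were 702 ± 72.3 (SD, n = 3) and 605 ± 156 (SD, n = 4), with a log2 fold change of -0.25 (95% CI -0.72 to 0.22; limma adjusted p = 0.974). That value was -0.064 without hDISC1AA/+ replicate 1, -0.10 without it and WT replicate 1, -0.17 without WT replicate 2 and -0.38 without hDISC1AA/+ replicate 4. The last exons of Cep290 overlap those of 4930430F08Rik on the opposite strand, which had a log2 fold change of -0.012. The 250 bases before the RefSeq start of Cep290 (GRCm38.p6, plus strand, chr10:100487332-100487581) are shown because Cep290 had the lowest fold change of the 9. Capitals mark the CCAAT box (the letters CCAAT) and the GC box (the letters GGGCGG), elements common in promoters of widely expressed genes.
Cep290: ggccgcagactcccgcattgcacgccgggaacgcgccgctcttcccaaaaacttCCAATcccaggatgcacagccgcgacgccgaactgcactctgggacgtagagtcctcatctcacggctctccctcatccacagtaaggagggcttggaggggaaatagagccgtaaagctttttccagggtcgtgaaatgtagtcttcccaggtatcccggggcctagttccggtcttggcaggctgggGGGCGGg
On either strand CCAAT was found in 37.4% and GGGCGG in 35.7% of the 32851 RefSeq promoter windows of 300 bases (250 before the start and 50 after it). Among the 8 of the 9 genes with a window (all but Pcm1), each was found in 5.

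The low values of Pcm1 and Cep290 in hDISC1AA/+ replicate 1 coincided with a feature of that library. In each library, a fit on GC content and exon length was made to the genes' log2 deviations from their means over the 7 libraries. The share of the variance of these deviations that the fit took up was 0.356 in replicate 1 and 0.117 or less in each of the other 6. Genes with a GC content under 42% in their longest transcript were low there: the median log2 difference from the mean of the other 6 libraries was -0.69 for the 690 such genes with over 7 kb of exons and -0.74 for the 1519 others. These bounds were set after the values were seen. For the 12405 genes at or above 42% with 7 kb or less it was 0.091. Pcm1 (GC 41.3%) was at -0.76 and Cep290 (38.7%) at -0.77. A further 3 genes had about the same GC content and did not share the low value: Bbs4 (41.0%) was at 0.051, Cep63 (41.0%) at -0.17 and Ift88 (41.2%) at -0.17. After a correction of each library for GC content and exon length, Pcm1 in replicate 1 was at -0.22 and Cep290 at 0.21, and the log2 fold changes between genotypes were -0.12 and -0.014. The same correction put Bbs4 at 0.63, Cep63 at 0.42 and Ift88 at 0.37 in replicate 1. The part of GC content and exon length in any of these differences was not tested.

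**Figure D2:**
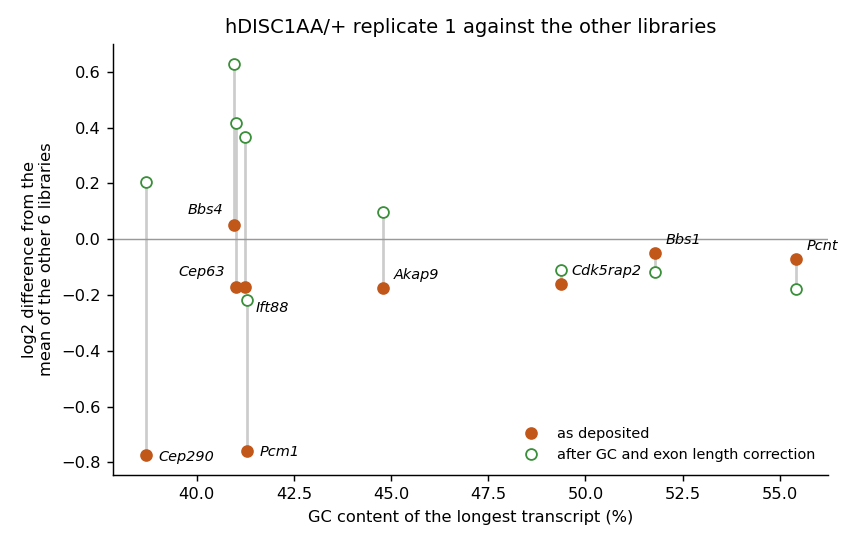
Log2 difference of hDISC1AA/+ replicate 1 from the mean of the other 6 libraries (vertical axis) against the GC content of each gene's longest transcript in percent (horizontal axis), as deposited (filled) and after GC and exon length correction (open). Pcm1 and Cep290 lie at -0.76 and -0.77 as deposited, while Bbs4, Cep63 and Ift88 with a GC content near that of Pcm1 lie between -0.17 and 0.051.

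Cep63, whose protein works with CEP152 in centriole duplication, had the highest fold change of the 9. Cep63 (ENSMUSG00000032534) lies on chromosome 9, 102584588 to 102626534, minus strand. Its normalized counts were 837, 993 and 984 in WT, and 899, 1265, 985 and 1059 in hDISC1AA/+. The unnumbered library was the highest and WT replicate 1 the lowest, and the groups overlapped. The means were 938 ± 87.7 (SD, n = 3) and 1052 ± 157 (SD, n = 4), with a log2 fold change of 0.16 (95% CI -0.15 to 0.47; limma adjusted p = 0.974). The value was 0.078 without WT replicate 1, 0.065 without the unnumbered library and 0.31 after the GC and length correction. Under that correction the groups were narrowly apart, with log2 deviations up to -0.108 in WT and from -0.088 in hDISC1AA/+. The limma p was then 0.0373 unadjusted and 0.938 adjusted, and 533 of 17543 genes had an unadjusted p under 0.05. The share of all genes with separate groups was not computed for this setting. Cep63 starts 238 bases from Anapc13, a gene on the opposite strand, and their exons overlap. Anapc13 encodes a subunit of the anaphase-promoting complex and had a WT mean of 263 ± 146 and an hDISC1AA/+ mean of 235 ± 33.2 normalized counts (SD), with a log2 fold change of -0.037.

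The pericentriolar material was represented by Pcnt, Cdk5rap2 and Akap9. Pcnt encodes pericentrin, which anchors the gamma-tubulin complexes (ENSMUSG00000001151, chromosome 10, 76351263 to 76442786, minus strand). It had 1425, 1129 and 1173 normalized counts in WT and 1156, 1093, 1203 and 1286 in hDISC1AA/+. WT replicate 1 was the highest of the 7, and the remaining WT values lay within the hDISC1AA/+ range. The means were 1243 ± 159.9 (SD, n = 3) and 1185 ± 81.3 (SD, n = 4), with a log2 fold change of -0.064 (95% CI -0.32 to 0.20) that was 0.039 without WT replicate 1.

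Cdk5rap2 encodes a partner of pericentrin that activates the gamma-tubulin complex, and loss of the human gene causes microcephaly. It lies on chromosome 4 (ENSMUSG00000039298, 70216856 to 70410443, minus strand). The normalized counts were 585, 564 and 635 in WT and 550.0, 654, 631 and 627 in hDISC1AA/+. Replicate 1 was again the lowest of the 7 libraries, by 2.51%, and the groups overlapped. The log2 fold change was 0.048 (95% CI -0.20 to 0.30). A pseudogene, Ywhaq-ps3, shares exon sequence with it on the same strand. The log2 fold change ranged from 0.0103 to 0.105 over the 18 other settings, always above 0. Some of these settings, the changed filters on which genes are tested, cannot alter it.

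Akap9 was the only gene of the 9 in which the groups did not overlap in the deposited values. It encodes AKAP450, a scaffold that holds protein kinase A and other enzymes at the centrosome and the Golgi apparatus (ENSMUSG00000040407, chromosome 5, 3928054 to 4081310, plus strand). The normalized counts were 4382, 4619 and 4482 in WT. Among the hDISC1AA/+ libraries, replicate 1 had 3816, the unnumbered library 3948, replicate 3 had 4118 and replicate 4 had 4334. All 4 lay below all 3 WT values, and the lowest WT value was 1.10% above the highest hDISC1AA/+ value. The counting error at the lowest read number of Akap9 was 1.66%. The means were 4494 ± 119 (SD, n = 3) and 4054 ± 224 (SD, n = 4), with a log2 fold change of -0.15 (95% CI -0.35 to 0.046; limma adjusted p = 0.974). The exact two-sided permutation test, with 35 possible divisions of the 7 libraries, gave p = 0.0571, and the smallest value it can give is 0.0286. Groups that do not overlap were found in 5.04% of all genes tested, and in 2.84% with WT the higher group, so 1 gene among 9 is not a result about the 9.

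The log2 fold change of Akap9 stayed below 0 without the libraries that stand apart, and its size depended on the correction. The log2 fold change was -0.12 without hDISC1AA/+ replicate 1 and -0.14 without it and WT replicate 1. It was -0.092 with upper-quartile scaling, under which the median of all genes tested rose to 0.048. After the GC and length correction Akap9 was at -0.058, and its groups overlapped. The 250 bases before the RefSeq start of Akap9 (GRCm38.p6, plus strand, chr5:3927936-3928185) are shown because this was the gene with separate groups. Capitals mark CCAAT and GGGCGG as for Cep290, here all read on the opposite strand.
Akap9: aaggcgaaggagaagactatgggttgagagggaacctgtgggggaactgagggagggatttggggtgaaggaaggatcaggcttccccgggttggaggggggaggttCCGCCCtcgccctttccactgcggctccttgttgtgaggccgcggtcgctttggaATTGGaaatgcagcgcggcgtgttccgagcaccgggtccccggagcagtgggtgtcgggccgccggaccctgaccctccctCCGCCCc
At its other end, Akap9 overlaps Cyp51, a cholesterol synthesis gene on the opposite strand, over 166 bases, and Cyp51 had a log2 fold change of -0.20 (95% CI -0.51 to 0.11). The window holds 1 CCAAT and 2 GGGCGG matches, and the stretch shown holds 65.6% G and C.

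**Figure D3:**
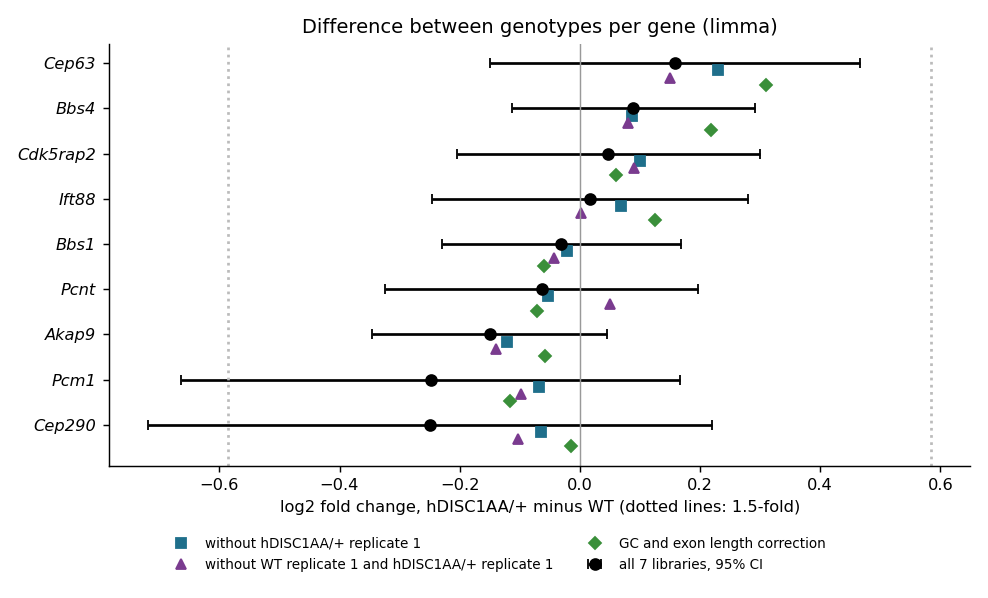
Log2 fold change between hDISC1AA/+ and WT (horizontal axis) for each of the 9 genes with limma's 95% confidence interval (black). Coloured symbols give the value without hDISC1AA/+ replicate 1, without it and WT replicate 1, and after GC and exon length correction. Every interval includes 0, and those of Pcm1 and Cep290 reach beyond the dotted 1.5-fold lines.

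Bbs1 and Bbs4 encode subunits of the BBSome, which is lost in Bardet-Biedl syndrome, and BBS4 also binds PCM1 at the satellites. These 2 genes varied least of the 9 in the deposited values. After the GC and length correction this no longer held for Bbs4, whose log2 deviations from its mean ran from -0.15 to 0.54. Those of Bbs1 then ran from -0.10 to 0.099. Bbs1 (ENSMUSG00000006464, chromosome 19, 4886878 to 4906628, minus strand) had 2043, 2188 and 2088 normalized counts in WT and 2018, 2195, 2019 and 2015 in hDISC1AA/+. The highest of the 7 values was 1.09 times the lowest, and the groups overlapped. The root mean square deviation of its log2 values from their mean was 0.0506, smaller than that of all but 1.01% of 12297 protein-coding genes with a mean of at least 100. The means were 2106 ± 74.3 (SD, n = 3) and 2062 ± 89.0 (SD, n = 4), with a log2 fold change of -0.031 (95% CI -0.23 to 0.17), so that a change of 1.5-fold lies outside the interval.

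Bbs4 (ENSMUSG00000025235, chromosome 9, 59321990 to 59353508, minus strand) had 1718, 1799.5 and 1692 normalized counts in WT and 1853, 1937, 1725 and 1876 in hDISC1AA/+. Of the hDISC1AA/+ values 3 lay above all WT values, and replicate 3 lay within the WT range. The means were 1737 ± 55.9 (SD, n = 3) and 1848 ± 89.0 (SD, n = 4), with a log2 fold change of 0.089 (95% CI -0.11 to 0.29; limma adjusted p = 0.974) that was 0.15 with upper-quartile scaling and 0.22 after the GC and length correction. The last exons of Bbs4 overlap those of Adpgk, a glucokinase gene on the opposite strand (log2 fold change 0.16).

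The start regions of the BBSome pair both match a loosely written motif. The X-box is the element that RFX factors, regulators of cilium genes, are known to bind. It was searched on both strands as the arm GTNNCC, a spacer of 0 to 3 further bases and the arm NGNAAC. Here N is any base, so the pattern is loose and a match need not be a full X-box. Matches with different spacers can overlap. Of the 8 genes with a window, Bbs1 and Bbs4 held the form with a spacer of 2, which 2.17% of the 32851 windows hold. The forms with a spacer of 0, 1 and 3, in 0.938%, 1.56% and 0.731% of windows, were found in none of the 8. A left arm alone, as GTTGCC, is in 12.5% of windows and was found in Bbs1, overlapping its X-box match, and in Ift88. The 30 bases around each match are shown on the gene's strand, with the X-box match, or for Ift88 the arm, in capitals. The Bbs1 X-box match and the Ift88 arm read on the opposite strand. Positions are chr19:4906605-4906634, chr9:59353464-59353493 (both minus strand) and chr14:57424080-57424109 (plus strand) of GRCm38.p6, from RefSeq.
Bbs1: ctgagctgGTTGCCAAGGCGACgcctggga
Bbs4: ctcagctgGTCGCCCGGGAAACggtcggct
Ift88: ggagtcgcgcctGGCAACggctgggcgtcc
The matches begin 2, 24 and 22 bases from the start site, counted from 1 at the start itself, so all 3 lie within the transcribed part. A match of letters describes the sequence and does not show that a factor is bound.

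Ift88 encodes a core subunit of intraflagellar transport complex B, without which cilia do not form (ENSMUSG00000040040, chromosome 14, 57424062 to 57517936, plus strand). It had 671, 825 and 718 normalized counts in WT and 668, 782, 777 and 754 in hDISC1AA/+. The 4 hDISC1AA/+ values lay within or next to the WT range, from 0.33% below its lowest value upward. The means were 738 ± 79.0 (SD, n = 3) and 745 ± 52.5 (SD, n = 4), with a log2 fold change of 0.017 (95% CI -0.25 to 0.28; limma adjusted p = 0.998). An antisense gene, Ift88os, overlaps it and had mean normalized counts of 16.7 and 23.4.

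Per kilobase of merged exons, a scale on which genes can be compared, the 9 genes spanned more than an order of magnitude. Over the 7 libraries Pcm1 had a mean of 673 ± 117 normalized counts per kb (SD, n = 7), above 84.5% of the genes tested. It was followed by Bbs4 (298 ± 15.3), Bbs1 (271 ± 10.4), Akap9 (199 ± 13.7) and Ift88 (160.3 ± 12.7). Below the median gene, at 139.9, were Cep63 (105 ± 14.2), Pcnt (99.5 ± 9.30), Cep290 (55.7 ± 11.1) and Cdk5rap2 (46.6 ± 3.06). Neighbours in this order had ranges that did not overlap, except for Bbs4 and Bbs1, Cep63 and Pcnt, and Cep290 and Cdk5rap2. Bbs4 was above Bbs1 in 7 of 7 libraries, Cep63 above Pcnt in 5 and Cep290 above Cdk5rap2 in 6. With the length of the longest transcript in place of merged exons the order was the same, while the level of Bbs4 was 479 and that of Cep63 171 per kb.

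**Figure D4:**
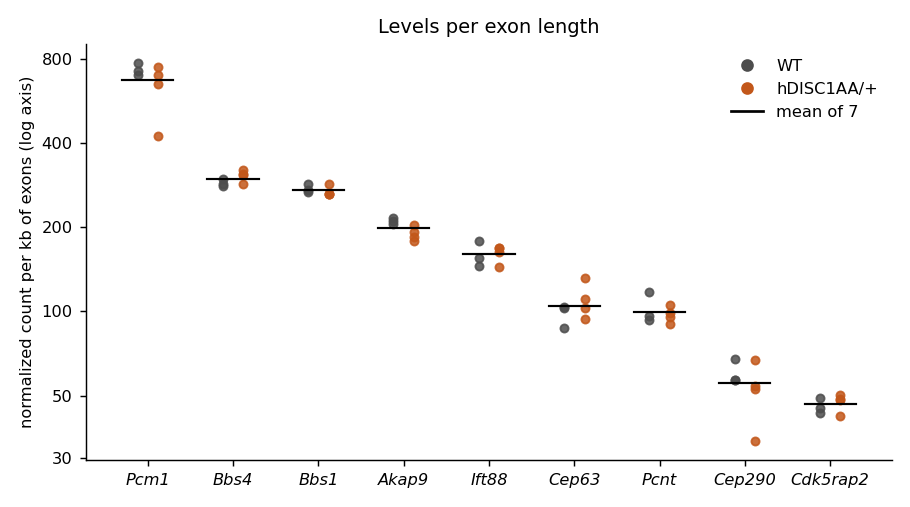
Normalized count per kilobase of merged exons (vertical log axis) for the 9 genes, ordered by the mean of the 7 libraries (black line), with WT in grey and hDISC1AA/+ in orange. The mean levels run from 673 for Pcm1 to 46.6 for Cdk5rap2.

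The 9 genes did not share a single pattern over the libraries. The lowest of the 7 libraries was hDISC1AA/+ replicate 1 for 5 genes (Pcm1, Cep290, Akap9, Cdk5rap2 and Ift88), as for 24.8% of all genes tested. The highest was WT replicate 2 for 4 genes (12% of all genes tested) and the unnumbered hDISC1AA/+ library for 4 others (14.6%). By the root mean square difference between log2 values centred on each gene's mean over the 7 libraries, the nearest pairs were Bbs1 with Bbs4 (0.0712) and Pcm1 with Cep290 (0.0738). For Pcm1 and Cep290 this was well under each gene's own spread over the libraries (0.275 and 0.301), while for Bbs1 and Bbs4 it was above it (0.0506 and 0.0683). In hDISC1AA/+ replicate 1, Pcm1 and Cep290 deviated from their means by -0.65 and -0.66. After the GC and length correction these deviations were -0.19 and 0.18. Those of Bbs1 and Bbs4 in that library were then -0.10 and 0.54. The differences between pairs were not computed after the correction. In the deposited values the pair farthest apart was Bbs4 with Cep290 (0.319). The same measure against the median pattern of the 9 genes found, among 12297 protein-coding genes, Ss18l1 (0.0189), Paip2 (0.0349), Brms1l (0.0385), Ocrl (0.0387) and Cep120 (0.0401) as the nearest. Cep120, a centriole elongation gene, had group means of 2136 ± 136 (WT) and 2107 ± 159 (SD). Ocrl encodes an inositol phosphatase that is also found at cilia and had 3181 ± 245 and 3125 ± 149. The others had 2180 ± 81.6 and 2125 ± 142 (Ss18l1), 3923 ± 160 and 3852 ± 322 (Paip2), and 2618 ± 103 and 2478 ± 147 (Brms1l). Some genes always come out nearest, so these names are no result about cilium genes. Of the 12297 genes, 63.8% lay nearer to the median pattern than Pcm1 did, and 71.6% nearer than Cep290.

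The wider centrosome and cilium machinery likewise gave no gene past the threshold. Of 201 genes in 11 lists, which hold the 9 genes too, 198 were tested by limma and 0 passed in either direction. Lower values in hDISC1AA/+ were found for 83 and higher values for 115, where 52.2% of all genes tested were lower. Without WT replicate 1 the split was 98 lower to 100 higher, and with upper-quartile scaling 60 were lower (6832 of all 17670 genes). The groups did not overlap for 9 of the 198 (5.04% of all genes tested). These were Akap9, Cep85, Haus2, Cep72, Rab11a, Mkks, Ift46, Kifap3 and Pafah1b1. An unadjusted limma p under 0.05 was reached by 3 (2.44% of all genes tested), namely Cep85, Mkks and Pafah1b1.

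Structural lists of the centrosome had more log2 fold changes above than below 0. Of 36 tested genes of the pericentriolar material and centriole linker 24 were above it (median 0.062), with Cep85 at 0.32 and the augmin subunit gene Haus2 at -0.31. Haus2 was at -0.20 without WT replicate 1 and at -0.097 without it and hDISC1AA/+ replicate 1. The centriolar satellite list had 12 of 22 above 0, with Spag5 at 0.65 (group means of 835 ± 377 in WT and 1199 ± 99.1 in hDISC1AA/+) and Cep72 at -0.49 (45.5 ± 2.27 and 32.8 ± 7.11). Spag5 was 404 in WT replicate 1, with all other libraries at 1005 to 1299.6, and its log2 fold change was 0.19 without that replicate. Genes of centriole duplication and structure were above 0 in 15 of 24 cases, with Poc5 at -0.20 and Sfi1 at 0.64, the latter 0.095 without WT replicate 1. In the list of distal appendages, the parts that dock a centriole at the membrane, 9 of 17 were above 0, with Cep164 at 0.33 (0.15 without WT replicate 1) and the vesicle GTPase gene Rab11a at -0.39. Rab11a was 2376 in hDISC1AA/+ replicate 1, the lowest value of the 7, and its value was -0.19 without that replicate. Without WT replicate 1 the leaning of 2 of these lists turned, with 12 of 22 satellite genes and 15 of 24 duplication genes below 0. Without hDISC1AA/+ replicate 1 that of the distal appendage list turned, with 9 of 17 below 0.

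Of the transport lists, the BBSome and its assembly factors had 7 of 13 genes below 0 (median -0.013), and 5 with upper-quartile scaling. Without WT replicate 1 there were 9 below 0. Mkks, a chaperonin-like gene needed to build the BBSome, was 1258, 1160.0 and 1156 in WT and 981 to 1069 in hDISC1AA/+, with a log2 fold change of -0.22 (95% CI -0.43 to -0.0074; limma adjusted p = 0.974). Its groups did not overlap, and the value was -0.19 without both libraries that stand apart. The 95% CI also excluded 0 for Cep85 (0.016 to 0.62) and Pafah1b1 (-0.54 to -0.0096) of other lists, so Mkks was not alone in this. Bbs2 was at 0.23, and at 0.059 without WT replicate 1. Complex B of intraflagellar transport had 10 of 17 above 0, but 9 of 17 below 0 without WT replicate 1. Ift46 was at 0.14 and Ttc30a1, which has a near-identical copy whose reads cannot be safely assigned, at -0.31 (-0.16 without WT replicate 1). Ift46 was 1011 to 1028 in WT and 1090 to 1166 in hDISC1AA/+, with no overlap. Complex A had 5 of 7 above 0, but 5 of 7 below 0 without WT replicate 1 and hDISC1AA/+ replicate 1 together. Of its genes Wdr19 was at 0.18 and Wdr35 at -0.13, and at 0.12 and -0.083 without WT replicate 1. The motors had 6 of 11 below 0, and 5 with upper-quartile scaling. There were 8 below 0 without hDISC1AA/+ replicate 1, and 8 after the GC and length correction. The kinesin-II gene Kifap3 was at -0.18, and Kif3c at -0.16 and at -0.092 without WT replicate 1.

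Transition zone genes were above 0 in 19 of 27 cases (median 0.11, and 0.013 without WT replicate 1), with Cc2d2a at 0.32 and Tctn3 at 0.23. Without WT replicate 1 these genes were at 0.094 and 0.013. Neuronal ciliary membrane and Hedgehog genes were divided into 9 below and 10 above 0, and 10 were below 0 without hDISC1AA/+ replicate 1. Evc2 was at 0.28 and Evc at 0.23, and without WT replicate 1 Evc2 was at 0.079 and Evc at -0.034. Among DISC1 and its other centrosome-bound partners 6 of 10 were below 0, and 5 without WT replicate 1 or with upper-quartile scaling. Without hDISC1AA/+ replicate 1 there were 9 below 0, and after the GC and length correction 8. Pafah1b1, the gene of the dynein regulator LIS1, was at -0.28, and at -0.18 without hDISC1AA/+ replicate 1. Ywhae was at -0.10, and at -0.034 without WT replicate 1. Ciliated cells of the ventricle wall could also contribute such transcripts. All 26 ependymal markers had reads in at least 1 library, and they summed to 2063 to 2808 normalized counts in WT, with the lowest value in WT replicate 1, and to 2512 to 3131 in hDISC1AA/+. The 10 choroid plexus markers summed to 268 to 688 and to 658 to 1248. Their part in the list counts was not tested.

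**Figure D5:**
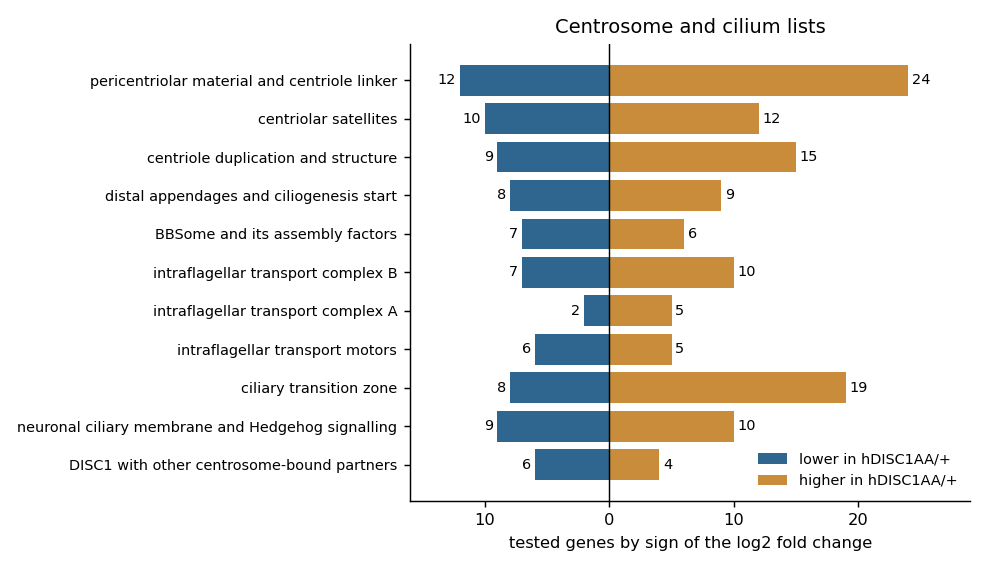
Number of tested genes with a log2 fold change below 0 (blue, to the left) and above 0 (orange, to the right) in the 11 centrosome and cilium lists. None of the 198 genes passed the threshold, and the pericentriolar list held 24 genes above and 12 below 0, the transition zone list 19 and 8.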

How the data were processed

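RNA sequencing libraries of 7 prefrontal cortex samples (3 WT, 4 hDISC1AA/+) were analysed. The authors deposited 1 table of normalized counts, a signal proportional to reads: in all 7 columns 100% of the deposited values above 0 were whole multiples of 1 step per library, within 0.01 reads, and whole reads were recovered from them. Per the submitters' processing notes, the tools were DESeq2 1.26.0, HISAT2 2.1.0, HTSeq 0.6.1 and Trimmomatic 0.39 and the build mm10, with no role given. The annotation and the strand setting of the counting were not given in the sources used here, so reads of overlapping genes on opposite strands may be mixed. For 3 genes, none of the 9, identifier and values stood on separate lines and were left out. Symbols, positions, exon lengths and GC content come from GENCODE M21 (42545 of 43626 identifiers matched), and promoters from RefSeq.

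Genes with at least 10 normalized counts in at least 3 libraries were tested with limma 3.58.1 (trend, robust, two-sided) on log2(normalized count + 1). This scale understates changes of low genes. Alternatives used edgeR 4.0.16 and DESeq2 1.42.0 on recovered reads, other pseudocounts, filters, weights and scalings, a spline correction for GC content and exon length, and each library left out. In counts simulated for this comparison (17387 genes tested), limma called 23.9% of 67 genes changed 1.5-fold, 58.2% of 67 changed 2-fold and 98.5% of 66 changed 4-fold. The simulation drew each gene independently and changed only the more abundant genes. It held no effects of GC content or cell types shared by genes of a library, so the shares in the real data may differ. The 9 genes and the lists were chosen with earlier results of these data known. Named were the 9 genes, up to 2 genes per list with the smallest p, and the 5 genes nearest to the median pattern. A further neuronal marker of the list is not reported here.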

Additional observations from a re-analysis of the deposited data

Results flagged for a closer look

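Of 18 values examined among the 4 hDISC1AA/+ libraries (the 9 genes, Disc1 and 8 marker sums), 2 had a library far from the other 3, where chance flags about 5% of such groups. Bbs1 in the unnumbered library, at 2195 normalized counts, stood apart from 2015 to 2019 in the other 3, by 0.979 of the range; the highest WT value was 2188. The summed choroid plexus markers were 1248 in hDISC1AA/+ replicate 1 against 658 to 737 in the other 3.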

How the results depend on the processing

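The count of genes past the threshold was 0 under all 18 alternatives, and the count of the 9 genes below 0 was 4 to 6. No paired analysis was possible because the titles give the 2 groups no shared replicate numbers. The sign held in all 18 for Pcm1, Bbs4, Cep63, Cep290, Akap9 and Cdk5rap2. The changed filters use the same log2 values and so could not alter a fold change, and the other pseudocounts altered it little. For Pcnt the log2 fold change was 0.023 with array weights and 0.050 without WT replicate 1 and hDISC1AA/+ replicate 1 together, and -0.13 to 0.039 with each library left out. For Bbs1 it was 0.027 with upper-quartile scaling. That scaling moved the median log2 fold change of all genes tested from -0.0092 to 0.048. For Ift88 it was -0.049 to 0.0997 with each library left out, below 0 without WT replicate 1, without WT replicate 3 (-0.00020), without the unnumbered library (-0.0072) and without hDISC1AA/+ replicate 3 (-0.0041). For Disc1 it was -0.30 with array weights, -0.11 without both libraries and -0.22 to 0.38 with each left out. The causes were not tested. The counting error of the 9 genes was 5.14% or less per library. Of 1.5-fold changes simulated for this comparison, without effects shared by genes of a library, 23.9% were called.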
